A study of Drosophila melanogaster with 16 samples.

Results

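Transcript levels of 9 genes of integrin-mediated adhesion were examined in hearts of the potassium channel mutants *sei* and *KCNQ* and of their control strains. The genes encode integrin subunits (*mys*, *mew*, *if*), proteins that link integrins to actin (*rhea*, *Vinc*), the complex of *Ilk*, *stck* and *parvin*, and the adaptor *Pax*. Members were chosen by name, as all probesets whose only gene symbol in the platform annotation is one of these, which gave 11 of the 18769 probesets tested and 9 of 11982 named genes. *mys* and *mew* are each read by 2 probesets and the other genes by 1.

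Integrins are membrane receptors made of an alpha and a beta subunit. Outside the cell they bind laminins and other matrix proteins, and inside it talin ties them to actin filaments, with further proteins strengthening the link. In *Drosophila* muscle they anchor myofibrils to the surrounding matrix, and embryos that lack the beta subunit lose their muscle attachments.

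RNA of 30 pooled hearts of 3-week-old adults was hybridized to each of 16 Affymetrix Drosophila Genome 2.0 arrays. The *sei* mutants (n = 5 arrays, genotype label seits1) carry a chemically induced allele of a hERG-type channel gene on chromosome 2 with a stop codon ahead of the membrane-spanning region. Their control, Wt CS (n = 5), was Canton-S. The *KCNQ* mutants (n = 3, genotype label KCNQ37, allele KCNQ370 in the study's methods) came from an imprecise P-element excision, and their control, Wt PE (n = 3, label KCNQ97), from a precise excision in w1118 flies. No driver or transgene was used in any group, flies were kept apart by sex without a sex being given for the arrays, and attached fat and tracheae were sucked away from the hearts. Each genotype is 1 line, so the mutation and any other alleles of that line cannot be told apart. A pooled heart is a mixture of cells, and fewer cells of a type and less RNA per cell cannot be told apart either.

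Levels are log2 RMA intensities, compared between groups only within a probeset. Over all probesets the mean level had a median of 3.42, a 25th percentile of 2.17 and a 75th percentile of 6.81, and the members' group means lay between 5.74 and 10.25. The *sei* transcript itself read 5.00, 4.76, 5.25, 5.19 and 3.89 in *sei* hearts, against 5.31, 5.84, 5.94, 6.03 and 5.75 in Wt CS, without overlap, while no probeset reads *KCNQ* alone. By their names the arrays fall into 3 runs. Run A has replicates 4 and 5 of *sei* and Wt CS with every *KCNQ* and Wt PE array, run B holds Wt CS 1 and 2 alone, and run C holds *sei* 1, 2 and 3 with Wt CS 3. Sample codes in these names repeat between some arrays of *sei* and between some of Wt CS, which may therefore be of the same RNA. *Hand*, a cardiac transcription factor, had group means of 11.96 to 12.28. With all arrays 0 of 6 muscle markers were called in any comparison, each gene being read by its brightest probeset. Within run A 1 was lower in *sei* than in Wt CS (4.56% of all probesets called), and 2 were lower in Wt PE than in Wt CS (12.7%). In Wt PE against Wt CS 2 were lower without run B (7.61%), and 1 was higher and 1 lower with run as a covariate (19.2%). A dimmer *sls* probeset (1634102_at) was lower in *sei*, at 2.46 ± 0.22 in *sei* and 3.40 ± 0.39 in Wt CS (adjusted p = 0.0259). By the brightest probeset of each, all 5 markers of hemocytes, the fly's blood cells, differed between *sei* and Wt CS, where 11.1% of all probesets did, with *NimC1* higher and *Hml*, *eater*, *Pxn* and *He* lower. A dimmer *Pxn* probeset (1629847_at) was higher instead, at 3.72 ± 0.60 in *sei* and 2.61 ± 0.25 in Wt CS (adjusted p = 0.0139). Their summed intensity was 2190 to 2550 in *sei* and 3070 to 3910 in Wt CS, and 2260 to 2820 in *KCNQ* and 3000 to 3210 in Wt PE. By the brightest probeset of each, no hemocyte marker was near the bottom of the scale. The dimmer *Pxn* probeset, at 2.61 in Wt CS, lay under the median of all probesets there. In *sei* against Wt CS, with all arrays, 0 of 7 fat body, 0 of 4 neuronal, 0 of 3 tracheal and 0 of 2 flight muscle markers were called. The count was 1 of 5 for pericardial nephrocytes (*sns*, lower) and 2 of 4 for the germ line (both lower). *Fbp1*, *Fbp2*, *brp*, *btl*, *verm* and *fln* of these lists had means of only 2.05 to 3.27 in these groups, so a change could have been missed. Of the fat body markers 4 of 7 had a higher mean in *sei*. *Lsp2* read 6.06 ± 3.55 in *sei* and 9.96 ± 1.34 in Wt CS (adjusted p = 0.0524) and was not called. The part of these cells in any result was not tested.

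**Figure D1:**
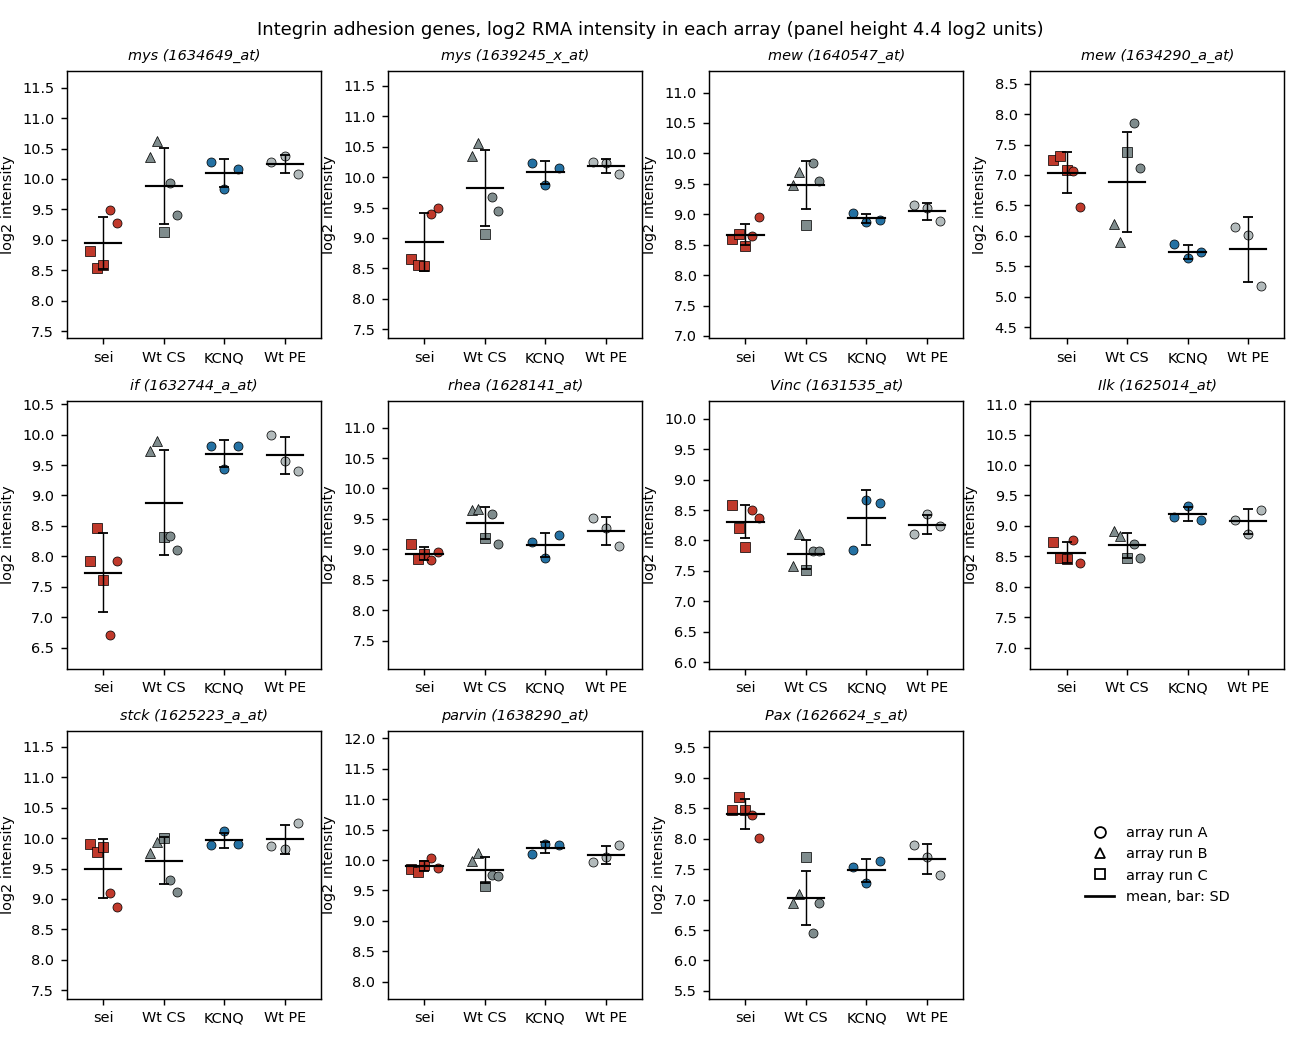
Log2 RMA intensity (y axis) of each of the 11 probesets in every array, by group (x axis), with the group mean and SD and a marker shape for the array run. The 5 *sei* arrays stood above all 5 Wt CS arrays for *Pax*, and the 2 Wt CS arrays of run B stood above the other Wt CS arrays for *mys* and *if*.

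The first comparison asked how the adhesion genes of *sei* hearts differed from those of Wt CS. *Pax* rose, and a probeset each of *mys* and *mew* fell, while the other 8 probesets were not called. *Pax* was called under all 27 alternatives that gave a test, *mew* under 25 and *mys* under 15. The 3 calls among 11 compare with 11.1% of all 18769 probesets called in this comparison (6.47% higher and 4.66% lower). All members have a mean level of 5 or more. A fit of only the 7167 such probesets called 21.8% of them, and 6 of the 11. The members' median change was -0.13, and that of all probesets -0.02.

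*Pax* encodes paxillin, an adaptor that brings signaling proteins to integrin adhesions. Its probeset (1626624_s_at) read 8.48, 8.69, 8.48, 8.39 and 8.01 in *sei* hearts, against 6.94, 7.09, 7.70, 6.45 and 6.94 in Wt CS. Every *sei* array was above every Wt CS array. The means were 8.41 ± 0.25 in *sei* and 7.02 ± 0.45 in Wt CS (SD, n = 5 each), a log2 change of 1.39 ± 0.21 (SE) or 2.62-fold, with adjusted p = 0.000558. The change was 1.50 within run A, with 2 arrays a group and adjusted p = 0.0149. In run C, with a lone control array, it was 0.85 and was not tested. With run as a covariate it was 1.22 and without run B 1.38. The suffix of this probeset marks, in the maker's naming, probes that can read more than 1 transcript, so other sequences may add to its level. *Pax* is also the only member on chromosome 2 (arm 2L), the chromosome that carries *sei* and *KCNQ* (arm 2R). *mys*, *mew*, *if*, *Vinc* and *parvin* are on X, *rhea* and *Ilk* on 3L and *stck* on 3R.

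The receptors came next. *mys* encodes the beta-PS subunit, the main beta integrin of flies, and *mew* and *if* encode the alpha-PS1 and alpha-PS2 subunits that pair with it. The brighter *mys* probeset (1634649_at) read 8.82, 8.54, 8.59, 9.49 and 9.28 in *sei* hearts, against 10.36, 10.62, 9.13, 9.93 and 9.41 in Wt CS. The groups overlapped, the controls of run B were the highest arrays, and the lowest control was the one of run C. The means were 8.95 ± 0.42 in *sei* and 9.89 ± 0.62 in Wt CS, and *mys* fell by 0.94 ± 0.27 on the log2 scale (adjusted p = 0.036).

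This call rested on which arrays were used. It was -0.28 within run A (adjusted p = 0.571), -0.37 with run as a covariate (adjusted p = 0.187) and -0.54 without run B (adjusted p = 0.253), and -0.48 in run C without a test. In both groups the level also moved with the run: *sei* averaged 9.39 in run A and 8.65 in run C, and Wt CS averaged 9.67 in run A, 10.49 in run B and 9.13 in run C. The call was lost when Wt CS 1, 2 or 4 or *sei* 1, 2 or 3 was left out, with changes of -0.93 to -0.76 and adjusted p of 0.0627 to 0.0959. The other *mys* probeset (1639245_x_at) gave -0.89 ± 0.28 (adjusted p = 0.0512) and was not called. It passed the threshold without Wt CS 3 or 5 or *sei* 4 or 5, at -1.08 to -0.99 with adjusted p of 0.0149 to 0.0495. With no array left out it passed with an intensity trend and robust prior, with probesets of a mean level under 5 dropped, or with arrays of a shared code averaged. The adjusted p was then 0.0103 to 0.0394. Its suffix marks probes that can match other genes, and it tracked the brighter one closely, with 8.54 to 9.49 in *sei* and 9.06 to 10.56 in Wt CS.

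The brighter *mew* probeset (1640547_at) read 8.60, 8.67, 8.47, 8.64 and 8.95 in *sei* hearts, against 9.48, 9.70, 8.83, 9.85 and 9.54 in Wt CS. The *sei* arrays were close together and lay below 4 of the 5 controls, and the exception was Wt CS 3, the lone control of run C. The means were 8.66 ± 0.17 in *sei* and 9.48 ± 0.39 in Wt CS, and *mew* fell by 0.82 ± 0.18 on the log2 scale (adjusted p = 0.00869). The change was -0.90 within run A (adjusted p = 0.0418), -0.62 with run as a covariate (adjusted p = 0.0264) and -0.25 in run C. It missed the threshold without run B, at -0.74 with adjusted p = 0.0549.

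The other *mew* probeset (1634290_a_at) did not show this. It read 7.24, 7.32, 7.08, 7.07 and 6.47 in *sei* hearts, against 6.19, 5.90, 7.37, 7.86 and 7.12 in Wt CS, a change of 0.15 ± 0.33 (adjusted p = 0.853). The 2 arrays of run B were the lowest of the controls, and without them the change was -0.42 (adjusted p = 0.424). Both *mew* probesets thus lay lower in *sei* within runs A and C, at -0.72 and -0.16 for this one, and only the brighter one was called.

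*if* read 7.93, 8.47, 7.61, 6.71 and 7.93 in *sei* hearts (1632744_a_at), against 9.73, 9.90, 8.32, 8.34 and 8.11 in Wt CS. It had the widest spread of the members, the run B controls were more than 1 unit above the others, and a *sei* array lay within the controls. The change was -1.15 ± 0.37 (adjusted p = 0.0588), not called, and -0.90 within run A, -0.52 without run B and -0.32 in run C. Without Wt CS 3 or 5 or *sei* 2 it passed the threshold, at -1.34 to -1.29 with adjusted p of 0.0374 to 0.0464.

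**Figure D2:**
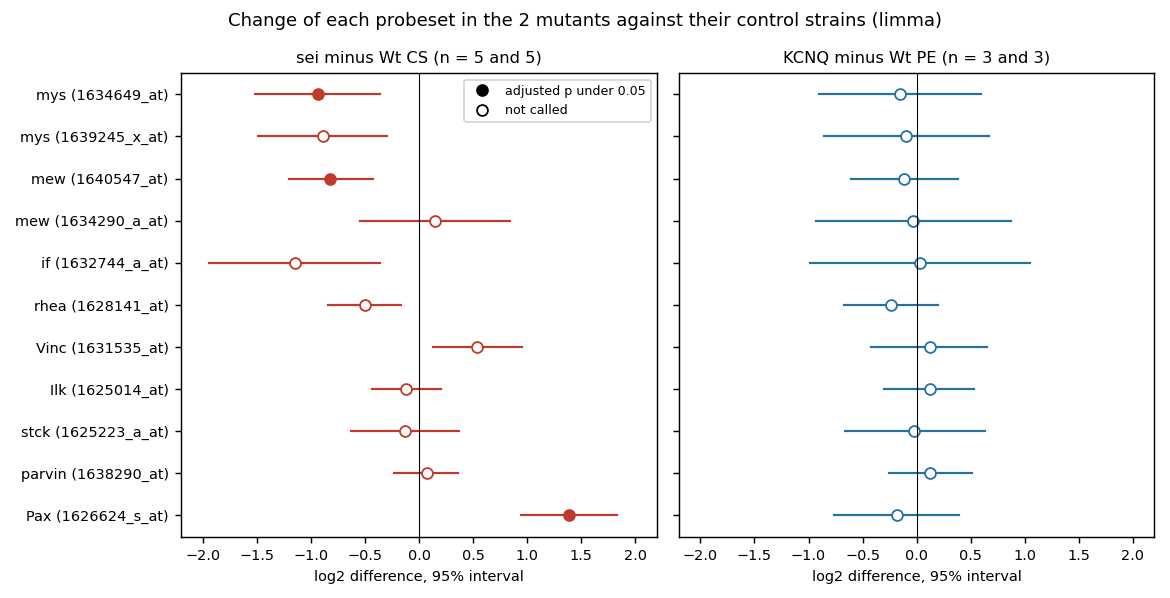
Log2 difference of each probeset (x axis, point with its 95% interval) in *sei* minus Wt CS on the left and *KCNQ* minus Wt PE on the right, with filled points for adjusted p under 0.05. *Pax* at 1.39, *mys* at -0.94 and *mew* at -0.82 were called in *sei*, and the 11 values for *KCNQ* lay between -0.24 and 0.12.

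The linkers differed from Wt CS in opposite directions, and neither was called. *rhea* encodes talin, which binds the integrin beta tail and actin. It read 9.09, 8.84, 8.93, 8.82 and 8.95 in *sei* hearts (1628141_at), against 9.64, 9.66, 9.19, 9.58 and 9.09 in Wt CS. The groups met at 9.09 without crossing, and the change was -0.50 ± 0.16 (adjusted p = 0.0532). Without Wt CS 3 or 5 it was called, at -0.57 and -0.59 with adjusted p = 0.0339 and 0.0303. With all arrays kept it was called with an intensity trend and robust prior, repeated quantile normalization, a replicate block, or probesets with a mean level under 5 dropped. The adjusted p was then 0.0325 to 0.0448. *Vinc* encodes vinculin, which binds talin and actin. It read 8.59, 8.20, 7.89, 8.50 and 8.37 in *sei*, against 7.58, 8.11, 7.52, 7.82 and 7.83 in Wt CS (1631535_at), a change of 0.54 ± 0.19 (adjusted p = 0.0894). The *Vinc* difference stayed between 0.54 and 0.71 under each handling of the runs, and a pair of *sei* and Wt CS arrays overlapped.

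The kinase-like scaffold *Ilk* and its partners *stck* (PINCH) and *parvin* form a complex that joins the integrin tail to actin. Their changes in *sei* were -0.12 ± 0.15 for *Ilk* (95% interval -0.44 to 0.20), -0.13 ± 0.24 for *stck* (-0.63 to 0.37) and 0.07 ± 0.14 for *parvin* (-0.23 to 0.36), with adjusted p of 0.712, 0.805 and 0.841. *Ilk* ranged over 8.39 to 8.77 in *sei* and 8.47 to 8.92 in Wt CS, and *parvin* over 9.81 to 10.04 in *sei* and 9.57 to 10.12 in Wt CS. These intervals leave out a change of 1 log2 unit in either direction for all 3 genes. *stck* followed the runs more than the genotype: it averaged 8.98 in *sei* and 9.22 in Wt CS in run A, and 9.84 in *sei* and 10.01 in Wt CS in run C.

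**Figure D3:**
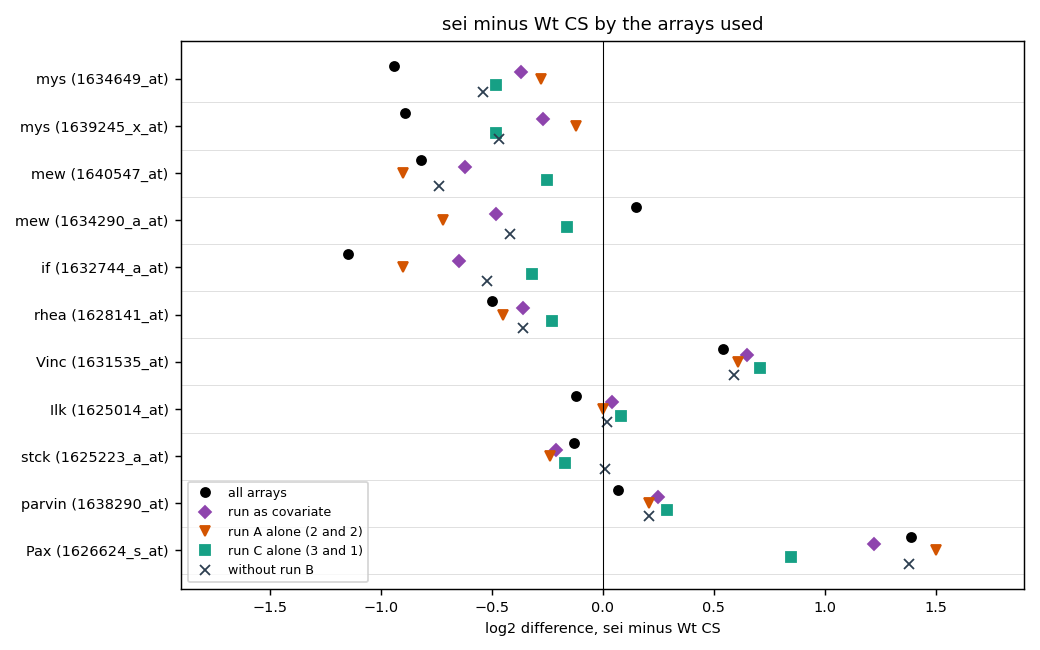
Log2 difference of *sei* minus Wt CS (x axis) for each probeset with all arrays, with run as a covariate, within run A, within run C and without run B. *Pax* stayed between 0.85 and 1.50, while *mys* (1634649_at) moved between -0.94 and -0.28 and *mew* (1634290_a_at) changed sign.

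The controls of run B bear on several of these values. Within Wt CS, run B exceeded the other arrays by 1.56 for *if*, 1.00 and 1.06 for *mys*, 0.36 for *rhea*, 0.34 for *Ilk* and 0.37 for *parvin*, and *mew* (1634290_a_at) was 1.41 lower. Those 7 probesets did not overlap between run B and the rest of Wt CS, which was so for 30.1% of all probesets and for 48.1% of the 7167 with a mean level of 5 or more. *Pax* differed by -0.02, *Vinc* by 0.12 and *mew* (1640547_at) by 0.18, with overlap. The part of the run in the *sei* comparison was tested only through the values above, since run B holds no *sei* array.

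In *KCNQ* hearts no adhesion gene was called against Wt PE. limma called 0 of 11 probesets, with an adjusted p of 1 for each and unadjusted p-values of 0.271 or more. The ordinary test of each probeset also called 0. Across all probesets limma called 0.17% (0.101% higher and 0.0693% lower) and the ordinary test 0.0107%. At these shares a count of 0 among 11 does not set the members apart. By limma 527 of all probesets had an unadjusted p under 0.05. Changes lay between -0.24 and 0.12, with a median of -0.03 beside 0.01 for all probesets. The 3 arrays a group limit the precision, and these values do not show that the groups were alike.

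*Pax* read 7.54, 7.27 and 7.64 in *KCNQ* hearts, against 7.89, 7.70 and 7.41 in Wt PE, a change of -0.18 ± 0.27 with a 95% interval of -0.76 to 0.39. *rhea* had the change farthest from 0, with 9.12, 8.86 and 9.23 in *KCNQ*, against 9.51, 9.35 and 9.06 in Wt PE (-0.24 ± 0.21). Both genes overlapped between the groups. *mys* (1634649_at) read 10.28, 9.84 and 10.16 in *KCNQ*, against 10.28, 10.38 and 10.08 in Wt PE, with an interval of -0.90 to 0.60. *if* gave 0.03 ± 0.48 and the *mew* probesets -0.12 ± 0.23 and -0.03 ± 0.42. All arrays of these groups were in run A.

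Whether the mutants differed in their effects was tested directly. Of the 11 probesets 1 was called, beside 1.39% of all probesets (0.73% higher and 0.655% lower). A fit of only the 7167 with a mean level of 5 or more also called 1 member, beside 3.71%. The probeset called was that of *Pax*, with an effect in *sei* larger by 1.57 ± 0.34 on the log2 scale (adjusted p = 0.0286). This call was near the threshold: it was lost without run B (1.56, adjusted p = 0.081) and when Wt CS 1, *sei* 1, 2 or 3, Wt PE 1 or 2, or any *KCNQ* array was left out, with values of 1.46 to 1.65 and adjusted p of 0.0537 to 0.0999. *mew* (1640547_at) differed by -0.70 ± 0.29 (adjusted p = 0.386) and *mys* (1634649_at) by -0.79 ± 0.45 (adjusted p = 0.592). The fall of *mys* and *mew* in *sei* was therefore not shown to differ from the change in *KCNQ*.

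The control strains gave a measure of difference between lines. In Wt PE against Wt CS limma and the ordinary test each called 0 of 11 members. Of all probesets limma called 3.67% (1.86% higher and 1.81% lower) and the ordinary test 0.916%. A fit of only the 7167 with a mean level of 5 or more also called 0 members, beside 11%. By limma 4 of 11 members had an unadjusted p under 0.05, as did 2798 of the 18769 probesets (14.9%). This comparison shares the Wt CS arrays with the *sei* comparison. *mew* (1634290_a_at) gave -1.12 ± 0.38 here and 0.15 in *sei*, *if* 0.78 ± 0.43 here and -1.15 in *sei*, *Pax* 0.64 ± 0.24 here and 1.39 in *sei*, and *mys* (1634649_at) 0.36 ± 0.32 here and -0.94 in *sei*. *Vinc* read 8.11, 8.43 and 8.24 in Wt PE, and the groups met at 8.11 without crossing, with a difference of 0.49 ± 0.22 (adjusted p = 0.32).

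This result depended on the runs. Within run A, 4 members were called between Wt PE and Wt CS: *if* at 1.44, *Pax* at 0.97 and *stck* at 0.76 were higher, and *mew* (1634290_a_at) was lower at -1.72, where 12.7% of all probesets were called. With run as a covariate there were 6, adding *Ilk* at 0.51 and *mys* (1639245_x_at) at 0.54, beside 19.2% of all probesets. Without run B there were 2, *if* at 1.40 and *mew* at -1.68, beside 7.61% of all probesets. Leaving out Wt CS 2 gave 1 call, *mew* (1634290_a_at) at -1.36 with adjusted p = 0.0384, beside 4.44% of all probesets. Leaving out Wt CS 3 gave 1, *Pax* at 0.81 with adjusted p = 0.047, beside 3.73%. The runs are read from array names only, and run A may itself hold more than 1 batch.

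Ordered by group mean, *sei* was the lowest genotype for both *mys* probesets, *if*, *mew* (1640547_at), *rhea*, *Ilk* and *stck*, and the highest for *Pax* and *mew* (1634290_a_at). For 9 of 11 probesets each pair of neighbours in that order overlapped. The exceptions were *Pax*, where *sei* stood apart above Wt PE, followed by *KCNQ* and Wt CS, and *Vinc*, where Wt CS stood apart below Wt PE. Neither the order nor the overlap of neighbours was counted over all probesets. They describe the members and do not show that the members are unusual.

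Among the other 13646 probesets with 1 symbol, those whose centred levels over the 16 arrays were nearest to *mys* (1634649_at) were its own second probeset, with a root mean square difference of 0.10, then *LpR2* (0.16), *usp* (0.20), *fzr* (0.21) and *ex* (0.22), against a spread of 0.65 for *mys* itself. Nearest to *if*, the member with the widest range of group means, were *CG15628* (0.35), *Drak* (0.38), *RhoGAP92B*, *Wwox* and *jim* (0.39 each), against its own spread of 0.98. These arrays share genotype and run, so likeness here is a description.

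Of 33 further genes of integrin adhesion and of the matrix it binds, 25 had a probeset of their own. In *sei* hearts 1 rose, 4 fell and 20 were not called, with a median of -0.18, beside 11.1% of all probesets called (6.47% higher and 4.66% lower) and a median of -0.02. None of the 25 was called in *KCNQ* by limma or by the ordinary test, which called 0.17% and 0.0107% of all probesets. Their median there was -0.13, beside 0.01 for all probesets. The genes called in *sei* were the laminin alpha chains *wb* and *LanA*, the alpha integrins *ItgaPS5* and *scb*, and *wech*, whose product links talin to the ILK complex in fly muscle. Like *Pax*, *wb* is on arm 2L, while *ItgaPS5*, *scb* and *wech* are on 2R, the arm of *sei*, and *LanA* is on 3L. Calls were not counted by chromosome over all probesets or over the genes not called. Whether called genes gather on chromosome 2 was therefore not tested.

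*wb* encodes an alpha chain of a laminin that integrins bind. It read 6.62, 7.22, 7.50, 7.85 and 7.66 in *sei* hearts (1626934_a_at), against 4.46, 3.79, 3.65, 3.74 and 2.96 in Wt CS, and rose by 3.65 ± 0.27 (adjusted p = 2.97e-07). All *sei* arrays were far above all Wt CS arrays. Wt CS stood apart from the other groups too, since *wb* read 8.87, 8.50 and 9.07 in *KCNQ* and 9.05, 8.67 and 9.02 in Wt PE, and the difference of Wt PE from Wt CS was 5.19 ± 0.31 (adjusted p = 7.2e-08). The other *wb* probesets, at low levels, gave 0.57 and 0.15 in *sei* (adjusted p = 0.573 and 0.677) and were not called.

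*LanA* encodes the alpha chain of the other fly laminin. It read 7.58, 8.25, 7.62, 7.29 and 7.74 in *sei*, against 9.18, 8.84, 9.64, 9.88 and 9.60 in Wt CS, without overlap, and fell by 1.73 ± 0.25 (adjusted p = 0.000424). It was also lower in Wt PE (7.57, 7.39 and 6.67) than in Wt CS, by -2.22 ± 0.29. *ItgaPS5* read 1.54, 1.37, 1.47, 2.38 and 1.68 in *sei*, against 5.69, 5.48, 3.79, 5.17 and 4.27 in Wt CS, and fell by 3.19 ± 0.32 (adjusted p = 9.44e-06). Its levels of 1.77, 1.61 and 1.87 in Wt PE gave a like difference of -3.13 ± 0.37 from Wt CS. Levels near 1.54, the 5th percentile of all probesets, are at the bottom of the scale, so the size of this difference is only approximate. *LanA*, *ItgaPS5* and *wb* were called under every alternative in *sei* that gave a test.

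*scb* encodes the alpha-PS3 integrin. It averaged 6.50 ± 0.75 in *sei* and 7.97 ± 0.53 in Wt CS, a change of -1.47 ± 0.35 (adjusted p = 0.0132). The change was not called within run A (-0.55), with run as a covariate (-0.92), without run B (-1.17) or by the ordinary test (adjusted p = 0.103). *wech* averaged 4.52 ± 1.25 in *sei* and 6.81 ± 1.12 in Wt CS with overlap, a change of -2.28 ± 0.63 (adjusted p = 0.0282). The *wech* call was lost within run A (-2.02, adjusted p = 0.2), in a separate fit (adjusted p = 0.0558) and by the ordinary test (adjusted p = 0.151). It was also lost when Wt CS 1 or 5 or *sei* 1 or 2 was left out, at -2.33 to -1.86 with adjusted p of 0.0508 to 0.0797. The *wech* probeset (1639785_s_at) has the same suffix as that of *Pax*, so other sequences may add to its level. The hemocyte markers named above moved between the same groups as these genes, and their part was not tested.

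**Figure D4:**
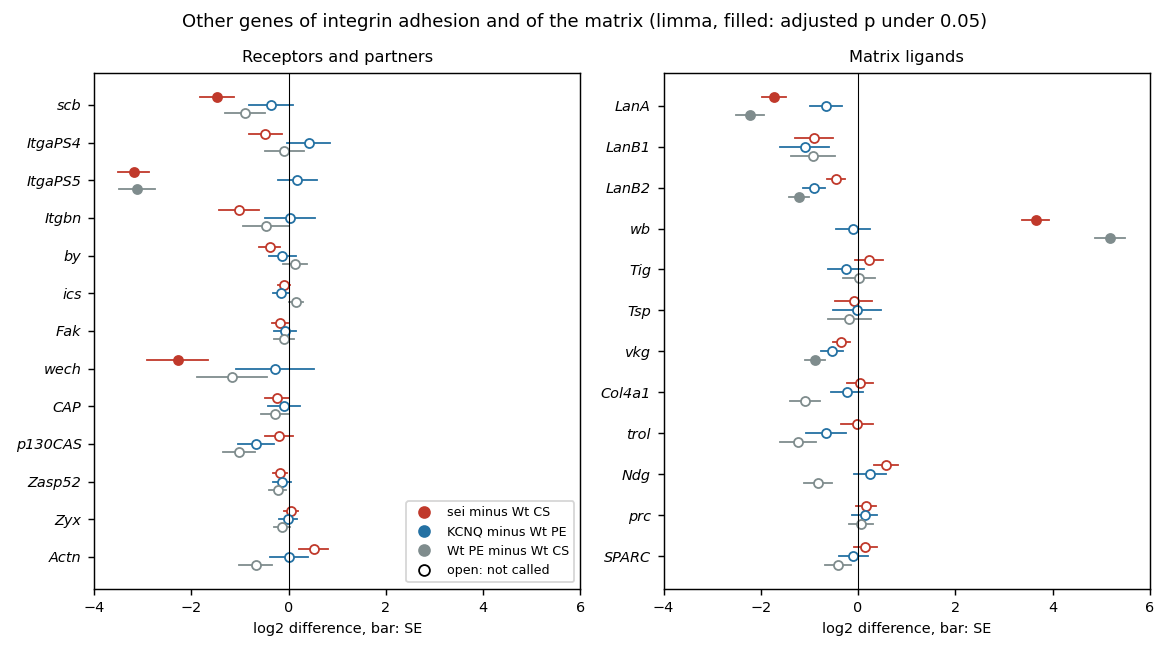
Log2 difference (x axis, point with its SE) of 13 further receptor and partner genes and 12 matrix genes in *sei* minus Wt CS, *KCNQ* minus Wt PE and Wt PE minus Wt CS, filled where adjusted p was under 0.05. *wb*, *LanA* and *ItgaPS5* were called both in *sei* and in Wt PE against the Wt CS arrays that these comparisons share.

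The changes of the mutants against their own controls differed for *wb*, by 3.75 ± 0.44 (adjusted p = 0.000172), in a test that called 1.39% of all probesets. Its means were 7.37 in *sei*, 8.81 in *KCNQ*, 8.91 in Wt PE and 3.72 in Wt CS. Only Wt CS lay low, so effects of the mutations and differences between the lines cannot be told apart here. *ItgaPS5* passed the same test at -3.37 ± 0.52 (adjusted p = 0.00228), but its means of 1.69 in *sei*, 1.93 in *KCNQ* and 1.75 in Wt PE are all at the bottom of the scale and only Wt CS lies above it. A fall in *KCNQ* could not have been seen, and that value is not a measured difference between the mutations. Between the control strains 5 of the 25 were called, beside 3.67% of all probesets (1.86% higher and 1.81% lower), and besides *wb*, *LanA* and *ItgaPS5* these were *LanB2*, a laminin chain, at -1.21 ± 0.21 and *vkg*, a type IV collagen chain, at -0.88 ± 0.21. The *vkg* call was lost without Wt PE 2 (-0.97, adjusted p = 0.0633) or Wt PE 3 (-0.66, adjusted p = 0.162). *LanB2* gave -0.45 ± 0.18 (adjusted p = 0.124) and *vkg* -0.34 ± 0.18 (adjusted p = 0.278) in *sei*, neither of them called.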

How the data were processed

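Hearts were profiled by the authors on single-channel Affymetrix arrays, checked with affyQCReport and normalized by RMA in AltAnalyze (version not given in the sources used here). The deposited values are linear RMA intensities, 1 per probeset and array, and log2 was taken here before any test, since RMA subtracts background and low values are compressed. Of 18952 probesets 183 platform controls were left out. Gene symbols came from the platform table (1 symbol for 13647 probesets, several for 402, none for 4720), and chromosomes are those of the Release 6 gene table, used without coordinates. Groups and replicate numbers came from sample titles, and runs and sample codes from array names in the study's own data sheet. Codes repeat between Wt CS 2 and 3, *sei* 2 and 5, and *sei* 3 and 4, so some arrays may be of the same RNA. Titles call all arrays biological replicates, but p-values here cover only how arrays of a group vary.

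limma 3.58.1 in R 4.3.3 fitted 4 group means (12 residual and 3.68 prior degrees of freedom). A probeset was called at a Benjamini-Hochberg adjusted p under 0.05, with all 18769 in the adjustment. All member probesets are reported. Of the further genes, the probeset with the highest mean stood for its gene, and those called were named, up to 6 a comparison by size. For likeness the 5 probesets with the lowest root mean square difference from the brightest *mys* probeset and from the member with the widest range were named. Members and lists were chosen with earlier results of these data known. Alternatives were a separate fit, a robust prior with an intensity trend, a second quantile normalization, 75th percentile scaling, dropping probesets with a mean log2 under 5, run as a covariate, run A alone, a block for the replicate number, averages over arrays that share a code, an ordinary test of each probeset without a shared prior, each array left out and, chosen after seeing the data, run C alone and omission of run B. Scripts were tested on simulated data. Sequences were not used here.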

Additional observations from a re-analysis of the deposited data

Results flagged for a closer look

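The effects of the *sei* and *KCNQ* mutations, each against its own control, were set against each other by limma's test of the difference itself. The log2 difference was 1.57 for *Pax* (adjusted p = 0.0286) and 3.75 for *wb* (adjusted p = 0.000172). For *wb* the *KCNQ* effect was -0.10, and the *sei*, *KCNQ* and Wt PE arrays all lay above the Wt CS arrays. *ItgaPS5* gave -3.37 (adjusted p = 0.00228), but its levels in *sei*, *KCNQ* and Wt PE were all at the bottom of the scale, so a fall in *KCNQ* could not have been seen and the value is not a measured difference between the mutations. No array lay apart from the rest of its group by Dixon's test in the 38 sets of 5 arrays examined, of which chance would mark about 1 in 20.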

How the results depend on the processing

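Counts are given with the share of all tested probesets called under the same setting. In *sei* minus Wt CS the 3 calls (11.1%) became 6 with an intensity trend and robust prior (11.4%), 5 with repeated quantile normalization (11.7%), 6 when dim probesets (mean log2 under 5) were dropped (21.8%), 1 by the ordinary test (3.18%) and 1 without run B (6.93%), and lay between 2 and 6 with an array left out (7.04% to 14.2%, with 6 without Wt CS 3 or 5, *rhea*, *if* and the second *mys* probeset being added). The 5 further genes became 3 by the ordinary test. For the difference of the effects the single member call (1.39%) became 0 without run B (1.21%) and 0 to 1 with an array left out (0.954% to 2.26%), and the 2 further genes became 1 without dim probesets (3.71%), where *ItgaPS5* is not tested. In Wt PE minus Wt CS the 0 members (3.67%) became 6 with run as a covariate (19.2%), 4 within run A (12.7%), 2 without run B (7.61%) and 0 to 1 with an array left out (1.72% to 4.44%), and the 5 further genes became 11, 7 and 8 under these run settings and, by the ordinary test, 2 (0.916%). The cause was not tested. In *KCNQ* minus Wt PE the count was 0 under all of these, where 0.0107% (ordinary test) to 0.352% (run as a covariate) of all probesets were called. No call changed sign. Replicate numbers did not pair the arrays: deviations of same-numbered arrays correlated at 0.03 to 0.53 for *sei* with Wt CS and -0.04 to 0.08 for *KCNQ* with Wt PE, and 1 of 5 and 0 of 3 arrays matched their own number best. With the replicate number as a block, 5 members were called in *sei* minus Wt CS (14.4%). With arrays that share a sample code averaged, 4 were called there (14.2%), the second *mys* probeset being added (adjusted p = 0.0103). A separate fit gives no value for the difference of the effects, and run C alone was not tested. *prc*, at group means of 1.64 to 1.84, and *ItgaPS5* outside Wt CS lie at the bottom of the scale, where RMA compresses differences.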

Other observations

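Several probesets of 1 matrix gene did not move together. Of the probesets of *trol*, the perlecan of the basement membrane, the brightest (1641442_a_at) gave -0.02 ± 0.32 in *sei* minus Wt CS (adjusted p = 0.983), while 1625116_at rose by 1.73 ± 0.37 (adjusted p = 0.00752), with means of 5.73 ± 0.78 in *sei* and 4.00 ± 0.46 in Wt CS (SD, n = 5 each). In *KCNQ* minus Wt PE they gave -0.66 and -0.45, neither of them called. A further *trol* probeset, 1640223_a_at, gave 0.99 ± 0.33 in *sei* minus Wt CS without overlap (adjusted p = 0.0671) and was not called. The remaining *trol* probesets, at means of 1.67 to 3.96 in *sei* and Wt CS, gave -0.83 to 0.18, and none was called. The rise of 1625116_at was noticed after the values were seen.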
